A study of Rattus norvegicus with 18 samples.

Results

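*Gfap*, *Fabp7*, and *Glul* are 3 genes by which the satellite glia of dorsal root ganglia (DRGs) are often recognized, and they were taken as 3 transcripts among the 41078 in the deposited table. *Gfap* (ENSRNOT00000034401) and *Fabp7* (ENSRNOT00000001079) were given by their identifiers, and for *Glul* the named transcript with the highest mean count was used (ENSRNOT00000075480). DRGs of levels L3 and L4 were collected from the left side of Sprague Dawley rats, 6 naive, 6 sham, and 6 with total knee arthroplasty (TKA), and the labels give 3 males and 3 females per group. Naive rats underwent no procedure, sham rats were anesthetized and had the skin of the left knee cut and sutured, and TKA rats were anesthetized and had the whole joint replaced on that side. The operated rats were sampled 24 h after surgery. The labels give no age, and because the joint was not opened in sham rats, the comparison of TKA with sham takes in everything that was done beyond the skin. Whole ganglia were sequenced, so fewer cells of a type and less RNA per cell cannot be told apart in any value given here.

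Satellite glia are flat cells that wrap the cell body of each sensory neuron in a ganglion. *Gfap* encodes glial fibrillary acidic protein, an intermediate filament protein that is scarce in resting satellite glia and is a common marker of their reaction to injury of the nerve. *Glul* encodes glutamine synthetase, which turns glutamate into glutamine and is present in satellite glia at rest. *Fabp7* encodes brain lipid-binding protein, which carries long-chain fatty acids in glia and their precursors.

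The promoters are shown because all 3 genes are used as markers of 1 cell type while their levels after surgery differed. Each stretch runs from 250 bases before to 50 bases from the start of the gene in RefSeq (assembly GRCr8, while the counts were made on rn6) and is printed on the strand of the gene. All 3 genes had an entry, with 2 starts listed for *Glul*. *Gfap* lies on the minus strand (chr10:88361612-88361911), *Fabp7* on the plus strand (chr20:37669356-37669655), and *Glul* on the plus strand (chr13:68575816-68576115). Capitals mark AATAAA, a variant of the TATA box.
Gfap: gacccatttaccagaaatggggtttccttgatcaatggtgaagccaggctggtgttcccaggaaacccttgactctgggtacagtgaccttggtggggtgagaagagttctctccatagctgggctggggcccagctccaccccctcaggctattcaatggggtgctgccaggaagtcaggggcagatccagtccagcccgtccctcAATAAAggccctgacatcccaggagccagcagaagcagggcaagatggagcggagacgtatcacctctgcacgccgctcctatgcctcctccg
Fabp7: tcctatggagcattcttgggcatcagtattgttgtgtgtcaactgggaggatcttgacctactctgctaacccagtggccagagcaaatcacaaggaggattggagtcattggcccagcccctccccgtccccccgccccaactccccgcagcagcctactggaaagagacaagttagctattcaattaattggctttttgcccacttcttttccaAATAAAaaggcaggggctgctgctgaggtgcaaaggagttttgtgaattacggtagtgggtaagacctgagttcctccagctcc
Glul: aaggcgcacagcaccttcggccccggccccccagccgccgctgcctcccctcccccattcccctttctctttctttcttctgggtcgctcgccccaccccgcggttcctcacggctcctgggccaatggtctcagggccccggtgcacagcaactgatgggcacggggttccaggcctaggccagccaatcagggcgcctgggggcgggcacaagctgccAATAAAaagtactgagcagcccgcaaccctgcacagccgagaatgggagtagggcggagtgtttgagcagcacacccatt
AATAAA on the strand of the gene began 43 bases before the start of *Gfap*, 34 before that of *Fabp7*, and 30 before the *Glul* start shown, and it was absent from the other *Glul* stretch (chr13:68519250-68519549). Of 33469 RefSeq promoters of the same length, 1.47% held it with its first letter 50 to 20 bases before the start on that strand, and 21.6% held it anywhere on either strand. TATAAA was found on neither strand of any of the 4 stretches (14.2% of promoters held it). The STAT motif TTCNNNGAA and the glucocorticoid receptor motif (GNACA and TGTNC separated by 3 bases) were also found in none of the 4, against 8.87% and 0.439% of promoters. TGGGAA, the core bound by RBPJ, was present on the opposite strand of *Gfap* 196 bases before the start and in none of the other stretches (25.7% of promoters held it on either strand). CCAAT occurred at 3 places in the *Glul* stretch shown and at 3 places in *Fabp7*, at 1 in the other *Glul* stretch, and at none in *Gfap* (37.5% of promoters). The letters searched were chosen after these sequences had been seen, and a match or its absence says nothing about binding.

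The total count per rat ranged from 20230562 to 29343899. TKA rats 2 and 6 stood apart in the markers of other cells, and sham rat 1 in some of them, so the members are also given without them. The gene lists are also given without TKA rats 2 and 6, with sham rat 1 kept. The library labelled female TKA rat 4 went against its label. Across the other 17 rats, 3 transcripts had at least 100 counts in every rat labelled male and at most 10 in every rat labelled female, and TKA rat 4 had at least 100 on 2 of the 3. It had at most 10 on the 1 transcript with the opposite pattern. No pair of rats had the same counts (chi-square per degree of freedom at least 12.5, median 34.7 over pairs). Levels are given as CPM, the count relative to the library total, after TMM scaling over the 18 rats. Transcript lengths were not used, so the CPM of one gene is not compared with that of another, and only differences between rats are read.

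*Gfap* was at 23.5, 30.5, 18.8, 14.1, 22.6, and 19.9 CPM in naive rats 1 to 6. In sham rats 1 to 6 it was at 133, 26.1, 35.7, 40.9, 17.1, and 13.2 CPM. In TKA rats 1 to 6 it was at 111, 992, 112, 74.0, 39.4, and 145 CPM. All 6 TKA rats therefore lay above all 6 naive rats, and 5 of the 6 sham rats lay at or below 40.9 CPM, about the level of the lowest TKA rat. Sham rat 1 was within the range of the TKA rats, and TKA rat 2 was far above every other rat.

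The mean level of *Gfap* was 21.6 ± 5.47 CPM (SD, n = 6) in naive, 44.2 ± 44.5 CPM (SD, n = 6) in sham, and 246 ± 368 CPM (SD, n = 6) in TKA rats. Without TKA rat 2 the TKA mean was 96.4 ± 40.5 CPM (SD, n = 5), and without sham rat 1 the sham mean was 26.6 ± 11.8 CPM (SD, n = 5). The spread widened with the level. The SD was 25.4% of the mean in naive, 101% in sham, and 150% in TKA rats, and the highest rat was at 2.16, 10.1, and 25.2 times the lowest. The 3 groups stood in the order naive, sham, TKA by median, at 21.2, 30.9, and 112 CPM, and the naive and sham levels overlapped.

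A second named transcript of *Gfap* (ENSRNOT00000093266) was far less counted, at a mean of 53.8 counts against 2224 for the first. It was at 0 to 0.948 CPM in naive, 0.202 to 2.55 CPM in sham, and 0.645 to 22.5 CPM in TKA rats, and TKA rat 2 was again the highest. Counts of single isoforms of a gene are uncertain, because reads that isoforms share can be split or lost in counting. With both transcripts summed, the log2 fold-change of *Gfap* was 3.55 for TKA against naive and 2.51 for TKA against sham, the same to 2 decimals as for the first alone.

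*Fabp7* was at 51.8, 39.9, 35.6, 26.6, 50.5, and 35.5 CPM in naive rats 1 to 6. In sham rats 1 to 6 it was at 45.1, 34.5, 46.7, 46.2, 47.5, and 47.4 CPM. In TKA rats 1 to 6 it was at 27.0, 48.4, 35.6, 32.8, 41.1, and 24.4 CPM. The 3 groups overlapped, and 5 of the 6 TKA rats were below 5 of the 6 sham rats. TKA rat 2, the highest by *Gfap*, was also the highest TKA rat by *Fabp7*, at a level inside the range of the naive rats.

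The mean level of *Fabp7* was 39.99 ± 9.70 CPM (SD, n = 6) in naive, 44.6 ± 5.03 CPM (SD, n = 6) in sham, and 34.9 ± 8.90 CPM (SD, n = 6) in TKA rats. The highest rat was at 1.95, 1.38, and 1.98 times the lowest in these groups. No neighbours in the order TKA, naive, sham differed by more than their spread.

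*Glul* was at 266, 289.8, 354, 329, 290.2, and 343 CPM in naive rats 1 to 6. In sham rats 1 to 6 it was at 497, 309, 315, 293, 223, and 285 CPM. In TKA rats 1 to 6 it was at 398, 1638, 380.4, 339, 362, and 545 CPM. Of the TKA rats, 5 were above all 6 naive rats, and TKA rat 4 lay inside the naive range. Sham rat 1 was above all naive rats and above 4 TKA rats, and the other 5 sham rats were below every TKA rat.

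The mean level of *Glul* was 312 ± 34.9 CPM (SD, n = 6) in naive, 320.2 ± 92.4 CPM (SD, n = 6) in sham, and 610.4 ± 509 CPM (SD, n = 6) in TKA rats. Without TKA rat 2 the TKA mean was 405 ± 81.2 CPM (SD, n = 5), and without sham rat 1 the sham mean was 285 ± 36.7 CPM (SD, n = 5). The medians were 309.7, 301, and 389 CPM, and naive and sham rats did not differ by more than their spread.

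**Figure D1:**
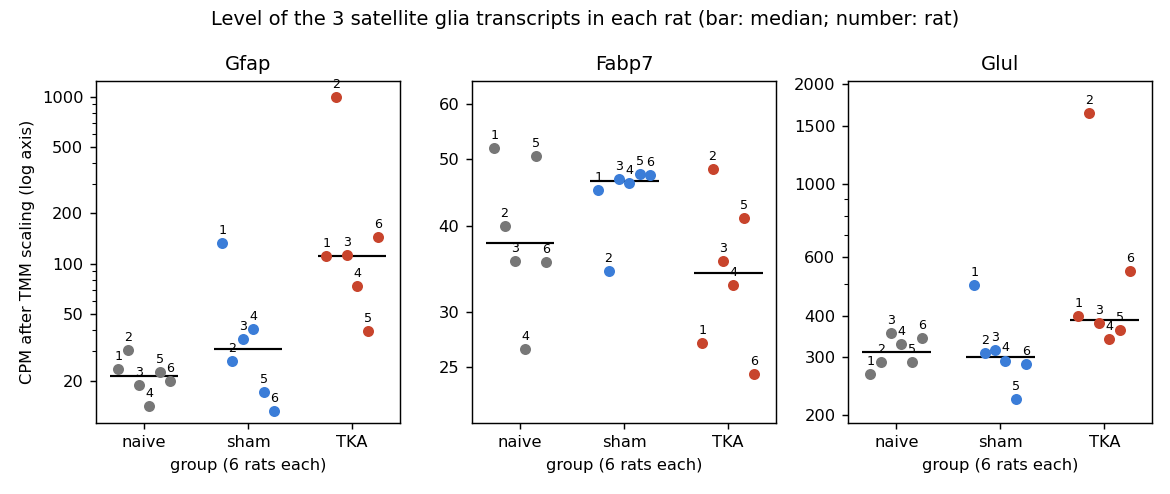
Level of each transcript in each rat, in CPM after TMM scaling on a log axis of its own in each panel, with the 6 rats of a group numbered and a bar at the median. By *Gfap*, all 6 TKA rats sit above the 6 naive rats, TKA rat 2 sits at 992 CPM, and sham rat 1 sits at 133 CPM among the TKA rats, while by *Fabp7* the 3 groups overlap.

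Each pair of groups was compared over all transcripts with edgeR's quasi-likelihood test, which asks whether a difference exceeds the spread between rats, and a call needed a Benjamini-Hochberg adjusted p under 0.05 together with a 1.5-fold difference or more. Both comparisons of TKA use the same 6 TKA rats, and the naive and sham rats each enter 2 comparisons. None of the 3 genes was called between TKA and naive rats, where 0.0857% of 15170 transcripts were called. None was called between TKA and sham rats, where 0% of 15320 were called, or between sham and naive rats, where 0% of 15153 were called. At an unadjusted p under 0.05, *Gfap* and *Glul* were higher in TKA than naive rats (11.7% of all transcripts were) and in TKA than sham rats (5.94% of all were), and *Gfap* was higher in sham than naive rats (2.49% of all were). DESeq2 called *Gfap* between TKA and naive rats whether or not its fold-changes were shrunk by a prior, and neither of these fits called a member in the other comparisons.

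Between TKA and naive rats, *Gfap* differed by 3.55 on the log2 scale (standard error 0.71, adjusted p = 0.0942 with edgeR), which is an 11.7-fold difference with a 95% interval from 4.04 to 33.8. The groups did not overlap, which was so for 1.27% of all transcripts in this direction, and the exact permutation test of its log2 level over all 924 splits of the 12 rats gave p = 0.00216 (two-sided), the smallest it can give. The size of the difference and the call both depended on TKA rat 2. Without this rat the log2 fold-change of *Gfap* was 2.17 and the adjusted p from edgeR was 0.00143, and without TKA rats 2 and 6 they were 1.97 and 0.00157. DESeq2 gave 3.55 without a prior (adjusted p = 0.000225) and 1.63 with one (adjusted p = 0.000932), and voom with weights for the quality of each library gave 2.05 (adjusted p = 0.0108). Leaving out TKA rat 5, the lowest by *Gfap*, also led to a call (log2 fold-change 3.77, adjusted p = 0.0391 with edgeR), and the other 10 fits that left out a single rat did not.

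Between TKA and sham rats, the log2 fold-change of *Gfap* was 2.51 (standard error 0.82, adjusted p = 0.523 with edgeR). This is a 5.68-fold difference with a 95% interval from 1.67 to 19.3, and the exact permutation p was 0.0281 (two-sided, not adjusted). Of the TKA rats, 2 were above all sham rats, and 4 sham rats were below all TKA rats. The log2 fold-change was 1.12 without TKA rat 2 and 3.25 without sham rat 1, and without both it was 1.85 (adjusted p = 0.209 with edgeR).

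Between sham and naive rats, the log2 fold-change of *Gfap* was 1.05 (standard error 0.44, adjusted p = 0.998 with edgeR), and the exact permutation p was 0.245. Of the sham rats, 3 were above all naive rats and 1 was below all of them. Without sham rat 1 the log2 fold-change was 0.31.

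For *Glul* the log2 fold-change was 0.99 between TKA and naive rats (standard error 0.36, adjusted p = 0.205 with edgeR), which is a 1.99-fold difference with a 95% interval from 1.16 to 3.42. The exact permutation p was 0.00649 (two-sided, not adjusted). Between TKA and sham rats the log2 fold-change of *Glul* was 0.95 (standard error 0.39, adjusted p = 0.535 with edgeR), or 1.94-fold (1.08 to 3.46), with an exact permutation p of 0.0584. Much of the size again rested on TKA rat 2. Without it the log2 fold-change of *Glul* was 0.38 against naive and 0.33 against sham rats. Between sham and naive rats *Glul* differed by 0.05 log2 units (standard error 0.14, adjusted p = 0.998 with edgeR), a 1.03-fold difference with a 95% interval from 0.834 to 1.28.

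For *Fabp7* no comparison passed the test, and the intervals were narrow. The log2 fold-change was -0.18 between TKA and naive rats (standard error 0.19, adjusted p = 0.658 with edgeR), with a fold of 0.884 and a 95% interval from 0.661 to 1.18. It was -0.34 between TKA and sham rats (standard error 0.16, adjusted p = 0.566), with a fold of 0.790 from 0.617 to 1.01 and an exact permutation p of 0.0563. Between sham and naive rats the log2 fold-change of *Fabp7* was 0.17 (standard error 0.14, adjusted p = 0.998), or 1.12-fold from 0.907 to 1.39. In all 12 fits that left out a single rat, the difference of *Fabp7* between TKA and sham rats stayed negative, from -0.48 to -0.26 on the log2 scale, and no fit called it.

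**Figure D2:**
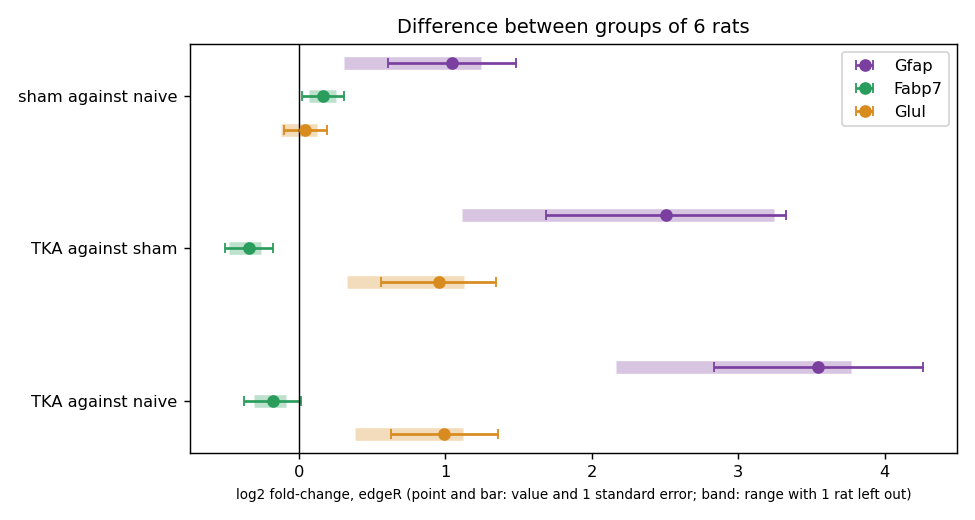
Log2 fold-change from edgeR for each transcript in the 3 comparisons, with a bar of 1 standard error and a band for the range when a single rat was left out. *Gfap* lies farthest to the right in each comparison, at 3.55 against naive rats, and its band reaches down to 2.17 there, while the points of *Fabp7* lie between -0.34 and 0.17.

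The contrast between *Gfap* and the other members was tested directly, as the log2 ratio of a pair of members within each rat, which no scaling of the library can change. The values of the ratio themselves carry the lengths of the transcripts, so only their differences between groups are read. The ratio of *Gfap* to *Fabp7* lay between -1.16 and -0.39 in naive, -1.84 and 1.55 in sham, and -0.06 and 4.36 in TKA rats. Every TKA rat exceeded every naive rat, and 4 of them were above all 6 sham rats. The mean log2 ratio was 2.84 higher in TKA than naive rats (exact permutation p = 0.00216, adjusted p = 0.00974 over the 9 ratio tests) and 2.41 higher in TKA than sham rats (exact permutation p = 0.013, adjusted p = 0.0341). Between sham and naive rats it differed by 0.44 (exact permutation p = 0.455, adjusted p = 0.5).

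The ratio of *Gfap* to *Glul* lay between -4.54 and -3.25 in naive, -4.43 and -1.90 in sham, and -3.20 and -0.72 in TKA rats. The TKA and naive rats did not overlap, and 3 TKA rats were above all sham rats. The mean log2 ratio was 1.94 higher in TKA than naive rats (exact permutation p = 0.00216, adjusted p = 0.00974) and 1.32 higher in TKA than sham rats (exact permutation p = 0.026, adjusted p = 0.0468). The difference between sham and naive rats was 0.62 (exact permutation p = 0.149, adjusted p = 0.192).

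The ratio of *Glul* to *Fabp7* was also higher in TKA rats, by 0.90 than in naive rats (exact permutation p = 0.0325, adjusted p = 0.0487) and by 1.08 than in sham rats (exact permutation p = 0.0152, adjusted p = 0.0341). In each of these, 3 TKA rats were above all rats of the other group. Between sham and naive rats this ratio differed by -0.18 (exact permutation p = 0.5).

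The 2 differences of *Gfap* between TKA and naive rats, relative to *Fabp7* and to *Glul*, stayed past the threshold whichever single rat was left out (2.36 to 3.25 and 1.70 to 2.20) and without TKA rats 2 and 6 (2.09 and 1.63). The other 4 did not. Without TKA rats 2 and 6, the difference between TKA and sham rats was 1.65 for *Gfap* to *Fabp7* (exact permutation, adjusted p = 0.129) and 1.01 for *Gfap* to *Glul* (adjusted p = 0.163), and that of *Glul* to *Fabp7* was 0.64 against sham (adjusted p = 0.129) and 0.46 against naive rats (adjusted p = 0.192). Dropping TKA rat 2 alone gave 1.93 for *Gfap* to *Fabp7* between TKA and sham rats (exact permutation, adjusted p = 0.0536).

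**Figure D3:**
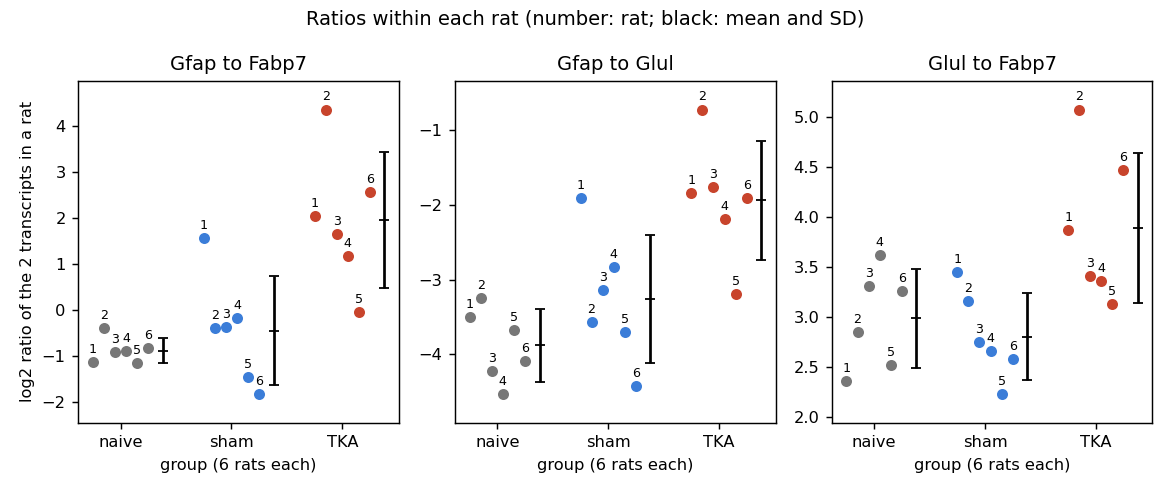
Log2 ratio of each pair of members within each rat, with rats numbered and the mean and SD of the group in black beside them. For *Gfap* to *Fabp7* and for *Gfap* to *Glul*, the 6 TKA rats lie above the 6 naive rats, with TKA rat 5 the lowest TKA rat in both, and sham rat 1 lies among the TKA rats.

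Across the 18 rats, *Gfap* and *Glul* ordered the rats alike (Spearman's rho 0.73), and over the 12 naive and sham rats alone rho was 0.26. *Gfap* and *Fabp7* had a rho of -0.18 over 18 rats and 0.03 over the 12, and *Glul* and *Fabp7* a rho of -0.47 and -0.67. These are descriptions over rats that share their groups and their mixture of cells, and no test was made. Among 2701 named transcripts of other genes with a mean of at least 50 counts, those most alike *Gfap* in rank over the 18 rats were *Casq2* (rho 0.91), which encodes the calcium store protein of cardiac and slow muscle, *Gltp* (0.89), a glycolipid transfer protein, *Fgf4* (0.88), a growth factor, *Mob1a* (0.87), of the Hippo pathway, and *Ssh2* (0.87), a cofilin phosphatase. Like *Gfap*, *Casq2* had its highest level, 28.2 CPM, in a TKA rat, and was between 0.548 and 1.54 CPM in naive rats. Those most alike *Glul* were *Pitpnm3* (0.89), *Sh2b3* (0.87), an adaptor that restrains cytokine receptors, *Xirp2* (0.86), an actin-binding protein of striated muscle, *Dixdc1*, and *Tmem100*. *Xirp2* ranged from 1.82 to 7.66 CPM in naive and from 8.27 to 467 CPM in TKA rats. For *Fabp7* no transcript came above 0.68, the value of *LOC102547287*, and *Hilpda* (0.64), a lipid droplet protein, *Zfp423*, *Mphosph8*, and *Slc16a14* followed.

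The TKA rats with the most *Gfap* and *Glul* also had the most of several markers of other cells. In TKA rat 2, where *Gfap* was 5.56 log2 units above the naive mean, the median of 15 named Schwann cell markers was 3.21 units above it, that of 11 macrophage markers 2.22 above, that of 4 muscle markers 7.21 above, and that of 5 neuron markers was at -1.21. TKA rat 6 was next, with *Gfap* at 145 CPM, the Schwann cell markers 2.39 above, and the neuron markers at -0.96. Sham rat 1, the highest sham rat by *Gfap* and by *Glul*, was 0.71 above by the Schwann cell, 0.87 by the macrophage, and 2.93 by the muscle markers. Not every rat followed this order. Sham rat 4 was above sham rat 1 by the Schwann cell markers (1.04) and the muscle markers (3.73), with *Gfap* at 40.9 CPM and *Glul* at 293 CPM, and TKA rat 3 was at 4.13 by the muscle markers, above TKA rat 6 at 4.07. Summed over its 15 markers, the level of Schwann cells was 7391 to 12575 CPM in naive, 8228 to 19442 CPM in sham, and 11465 to 99235 CPM in TKA rats. The 4 muscle markers, *Acta1*, *Ckm*, *Mb*, and *Mylpf*, summed to 18.7 to 248 CPM in naive, 20.2 to 606 CPM in sham, and 33.2 to 8369 CPM in TKA rats. The 11 macrophage markers summed to 142 to 279 CPM in naive, 99.6 to 437 CPM in sham, and 244 to 872 CPM in TKA rats, and the 5 neuron markers to 35832 to 47317, 34664 to 44444, and 17171 to 39997 CPM. These sums were set by the neurofilament genes *Nefl*, *Nefm*, and *Nefh*. The other 2 neuron markers were not lower over the groups, with *Calca*, the gene of a peptide of pain fibers, at a log2 fold-change of 0.07 against sham and 0.10 against naive rats and *Slc17a6* at 0.04 and -0.03. In TKA rat 2 alone, however, *Calca* was at 68.9 CPM and *Slc17a6* at 25.7 CPM, against at least 426 and 182 CPM in every naive and sham rat. Without TKA rats 2 and 6, *Calca* was at 0.39 against sham and 0.43 against naive rats, and *Slc17a6* at 0.35 and 0.29. In that fit *Nefl*, *Nefm*, and *Nefh* stayed lower, at -0.21, -0.29, and -0.28 against sham and -0.26, -0.36, and -0.33 against naive rats. The 5 neuron markers thus did not move together. All 15 Schwann cell, 11 macrophage, and 5 neuron markers had counts in every rat, and 1 of the 4 muscle markers was at 0 in some rat. When the mean level of the neurofilaments *Nefl*, *Nefm*, and *Nefh* was entered as a covariate, the log2 fold-change of *Gfap* was 1.37 between TKA and naive rats and 0.49 between TKA and sham rats, and that of *Glul* turned to -0.21 and -0.11. Neither gene was called in these fits, and the neurofilaments entered were themselves lower in TKA rats. The part of the other cells in the differences of *Gfap* and *Glul* was not tested. Without TKA rats 2 and 6, the median log2 fold-change of the Schwann cell markers was -0.0024 against sham and 0.42 against naive rats, where it had been 1.29 and 1.62 with them, and that of *Gfap* was 0.92 and 1.97. Of the 15 Schwann cell markers, 9 were still higher against naive rats at an unadjusted p under 0.05 (6.86% of all transcripts were). The median of the macrophage markers was 0.55 against sham and 0.54 against naive rats, where it had been 1.11 and 0.93. That of the muscle markers was 0.29 and 1.85, where it had been 2.88 and 4.41. *Gfap* was then called against naive rats, and in the 4 TKA rats that were left it was at 39.4 to 112 CPM, against 14.1 to 30.5 CPM in naive rats.

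**Figure D4:**
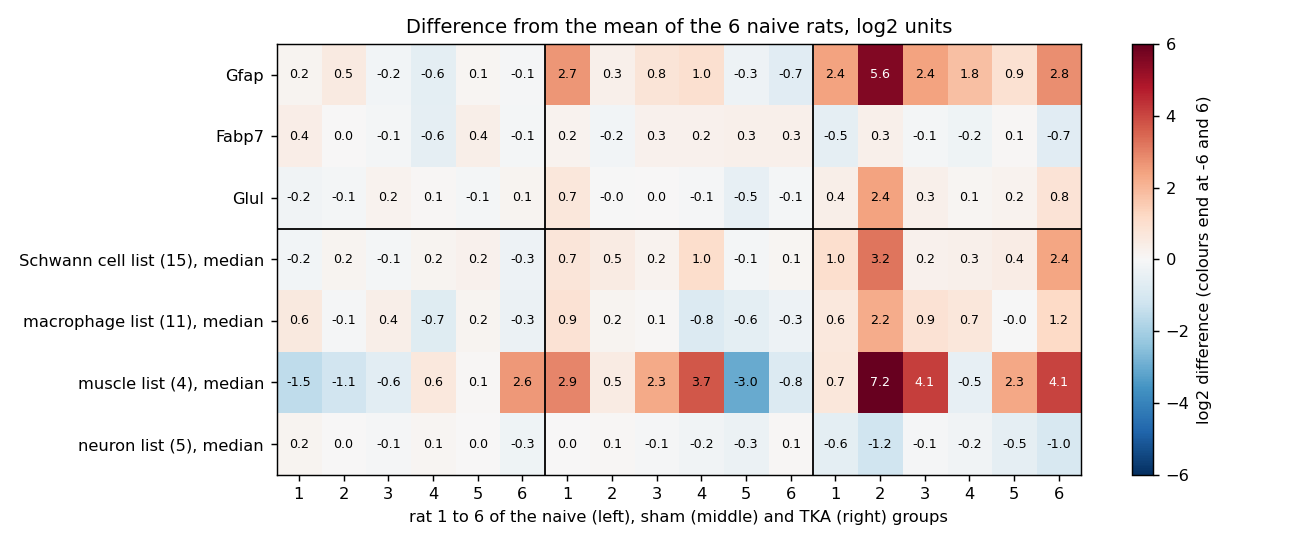
Difference of each rat from the mean of the 6 naive rats, in log2 units, for the 3 transcripts (top) and the median of the named markers of 4 cell types (bottom), with naive, sham, and TKA rats from left to right. TKA rats 2 and 6 are highest by *Gfap*, *Glul*, and the Schwann cell markers and lowest by the neuron markers, while *Fabp7* stays within 1 unit in every rat.

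Of the 14 other genes on the satellite glia list, 3 had a name in the table used here, so the list could not be described as a whole. *Atp1b2*, a sodium pump subunit of glia, had a log2 fold-change of 1.18 between TKA and naive rats (adjusted p = 0.149 with edgeR) and 0.76 between TKA and sham rats. *Ttyh1*, a membrane protein of glia, was at 0.23 and 0.06, and the named transcript of *Apoe*, which had a mean of 16.3 counts, at -0.85 and -0.77. None of the 3 passed the test. With TKA rats 2 and 6 left out, *Atp1b2* was at 0.62 against naive rats, which was called (adjusted p = 0.00296 with edgeR), and at 0.18 against sham rats. In the same fit *Ttyh1* was at 0.12 against naive and -0.06 against sham rats. *Apoe* was at -2.07 and -2.01 there, and neither of these genes was called. The named genes of this list thus went in different directions. Names came from tables sorted by p-value, so the named members of a list favour transcripts with a low p-value and do not stand for the whole list. This holds for every list given here. A count of named members at an unadjusted p, set beside the share of all transcripts, is a description and not a test.

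Other intermediate filament genes were not called either (0 of 7 tested), and they went in different directions. At an unadjusted p under 0.05, 2 were higher and 3 lower in TKA than sham rats (5.94% of all transcripts were higher and 2.9% lower). In TKA against naive rats 2 were higher and 3 lower (11.7% of all were higher and 5.48% lower). The median log2 fold-change was -0.27 and -0.35, against 0.01 and 0.02 over all transcripts. *Vim*, which encodes vimentin, a filament protein of glia and mesenchymal cells, was at 0.44 against sham and 0.52 against naive rats, well short of *Gfap*. *Des*, the filament of muscle, was at 2.25 and 3.31, and at 0.36 and 1.44 without TKA rats 2 and 6. *Nes*, the filament of glial and neural precursors, was at 0.74 and 0.80 with these rats and at -0.14 and -0.06 without them, and *Vim* was at 0.25 and 0.34 without them. The neurofilament genes *Nefl*, *Nefm*, and *Nefh* were at -0.44, -0.48, and -0.47 against sham rats and at -0.50, -0.57, and -0.53 against naive rats. Without TKA rats 2 and 6 the counts at an unadjusted p under 0.05 were 1 higher and 3 lower against sham rats (3.26% and 3.33% of all transcripts) and 2 higher and 3 lower against naive rats (6.86% and 5.79%).

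Around *Glul*, 7 of 21 other genes of glutamate and glutamine handling were named and tested, and 0 were called. In TKA against sham rats 4 had an unadjusted p under 0.05, all higher (5.94% of all transcripts were), and in TKA against naive rats 5 did, all higher (11.7% of all were), with a median log2 fold-change of 0.54 and 0.59. TKA rat 2 stood far above the others, with the list at a median of 2.17 log2 units over the naive mean against -0.01 to 0.89 in the other 5. When TKA rats 2 and 6 were left out, 4 and 5 of the 7 were higher at that p (3.26% and 6.86% of all transcripts were), and the median was 0.22 and 0.39. *Slc38a3*, a glutamine transporter, was at 2.43 and 2.86, but at 0.03 and 0.47 without TKA rats 2 and 6, where it had been at 98.6 and 16.8 CPM. With all rats, *Slc1a5*, an exchanger of neutral amino acids, was at 1.47 and 1.48, and *Slc1a1*, a glutamate transporter of neurons, at 0.64 and 0.82. *Slc7a5* and *Slc3a2*, which form an exchanger of large amino acids for glutamine, were at 0.54 and 0.32 against sham and at 0.59 and 0.37 against naive rats. *Slc17a6*, the vesicular glutamate transporter of sensory neurons, was at 0.04 and -0.03.

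Beside *Fabp7*, the list of binding proteins for fatty acids and retinoids is described by *Pmp2*, the fatty acid binding protein of peripheral myelin. It had a log2 fold-change of 1.87 against sham and 1.91 against naive rats (adjusted p = 0.533 and 0.177 with edgeR), and *Fabp7* was at -0.34 and -0.18. TKA rats 2 and 6 were at 2277 and 1454 CPM by *Pmp2*, while the other 4 TKA rats were at 182 to 326 CPM and the naive rats at 123 to 296 CPM. The log2 fold-change of *Pmp2* without TKA rats 2 and 6 was 0.13 against sham and 0.18 against naive rats.

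Injury-related cytokines that signal through STAT3 are known to induce *Gfap* in glia. Of the 24 genes on this list, 12 were named. At an unadjusted p under 0.05, 9 were higher in TKA than sham rats (5.94% of all transcripts were) and 10 in TKA than naive rats (11.7% of all were), with none lower. Naming favoured a low p-value in these same data, so these counts do not test the list. A link between this list and *Gfap* was not tested. *Cebpd*, a transcription factor of the acute-phase response, rose from naive to TKA rats (log2 fold-change 1.47, adjusted p = 0.0018 with edgeR). *Socs3*, the feedback inhibitor of this pathway, was at 2.10 (adjusted p = 0.0671) and *Myc*, a transcription factor, at 1.73 (adjusted p = 0.0671). *Il6r*, a receptor for interleukin 6, was at 0.99, *Cntf*, a cytokine of Schwann cells, at 1.11, and *Jak2*, the kinase, at 0.64. The median over the 12 was 0.83 against sham and 1.05 against naive rats. Without TKA rats 2 and 6, 9 and 8 of the 12 were higher at that p (3.26% and 6.86% of all transcripts were), and the median was 0.56 and 0.67. Of the 12, 5 were then called against naive rats, where 105 of 15709 transcripts were called. Among the 5 were *Socs3* at 2.39 (adjusted p = 0.00283 with edgeR) and *Cebpd* at 1.54. *Cntf* fell to 0.45 and *Il6r* to 0.30 against naive rats in this fit.

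*Glul* is also a known target of glucocorticoids. Of 15 other genes on the glucocorticoid list, 14 were named. At an unadjusted p under 0.05, 13 were higher in TKA than sham rats (5.94% of all transcripts were). In TKA against naive rats 10 were higher (11.7% of all were), with none lower in either comparison and 0 called. The names came from results of these same data sorted by p-value, and the list was chosen with earlier results known. These counts are therefore not a test of the list against the share of all transcripts. *Mt2A*, a metallothionein, was at 1.72 and 2.08, *Klf15*, a transcription factor of metabolism, at 1.11 and 0.89, *Per1*, a clock gene, at 0.80 and 0.53, and *Fkbp5*, a chaperone of the receptor, at 0.61 and 0.38. The median log2 fold-change was 0.81 against sham and 0.49 against naive rats, and that of *Glul*, at 0.95 and 0.99, was above both. Without TKA rats 2 and 6, 10 and 8 of the 14 were higher at that p (3.26% and 6.86% of all transcripts were). In each comparison 1 was lower (3.33% and 5.79% of all were). Of the 14, 3 were then called against naive rats, where 105 of 15709 transcripts were called. The median was 0.52 and 0.38, while *Glul*, at 0.20 and 0.25, was below both. With all rats, *Sgk1*, a kinase, was the only one of the 14 below 0, at -0.38 and -0.42. Without TKA rats 2 and 6 it was at -0.77 and -0.80, and *Zbtb16* (-0.18) and *Angptl4* (-0.007) were also below 0 against naive rats.

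**Figure D5:**
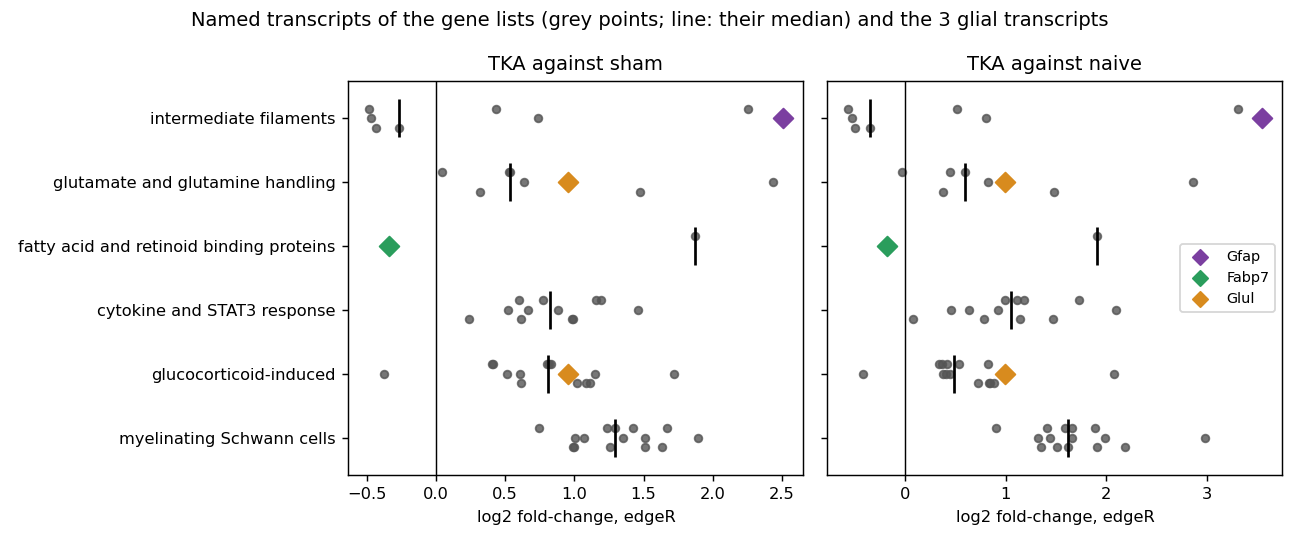
Log2 fold-change from edgeR of the named transcripts of 6 lists (grey points, with a line at their median) and of the 3 members on the lists they belong to (diamonds), for TKA against sham (left) and TKA against naive (right). *Gfap* at 2.51 and 3.55 lies right of the other filament genes, *Glul* lies right of the median of its lists with all rats, and *Fabp7* lies left of 0.

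The response to surgery was compared between rats labelled female and male by the interaction of sex and group, with 3 rats in each cell and with TKA rat 4 as labelled. *Gfap* was at 111 to 992 CPM in TKA rats labelled male and at 39.4 to 145 CPM in those labelled female. *Glul* was at 380.4 to 1638 CPM and 339 to 545 CPM, and *Fabp7* at 27.0 to 48.4 CPM and 24.4 to 41.1 CPM. In naive rats the *Gfap* range was 18.8 to 30.5 CPM in those labelled male and 14.1 to 22.6 CPM in those labelled female. The interaction (female minus male, log2) was -1.92 for *Gfap* between TKA and naive rats (standard error 1.07, adjusted p = 0.995 with edgeR), -1.08 for *Glul* (standard error 0.67, adjusted p = 0.995), and -0.03 for *Fabp7* (standard error 0.41, adjusted p = 0.999). Between TKA and sham rats it was -0.82, -0.50, and -0.35, with an adjusted p of 1 for each. No transcript was called by edgeR in any of these interactions (406, 712, and 667 had an unadjusted p under 0.05 for TKA against sham, TKA against naive, and sham against naive). Without TKA rat 2, the interaction of *Gfap* was -0.02 between TKA and naive rats and 1.07 between TKA and sham rats. Its size against naive rats and its direction against sham rats therefore rested on that rat.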

How the data were processed

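RNA from L3 and L4 DRGs of 18 rats was sequenced, each rat being 1 sample. The labels gave group, rat number, and sex, and p-values measure the spread between rats. The authors aligned paired-end reads of 150 bp with HISAT2 (rn6) and deposited featureCounts output, raw counts for each Ensembl transcript that were not normalized. They tested the counts with DESeq2. Tool versions, the annotation, and how strand and overlaps were handled are not given in the sources used here, so reads shared by isoforms, near-identical genes, or overlapping genes may be split or lost.

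Gene names came from a shortened copy of a supplementary table sorted by p-value, which named 3837 of the 41078 transcripts. The members and lists were chosen with earlier results of these data known. For each comparison the 12 rats of its groups entered edgeR 4.0.16 (R 4.3.3) with filterByExpr, TMM, the quasi-likelihood F test, and Benjamini-Hochberg adjustment over all transcripts tested. Intervals use the standard error and degrees of freedom of that fit. The log2 CPM used a prior count of 2. Single values and the 9 ratio tests used an exact permutation test over 924 splits, two-sided. Genes were named by a fixed rule: the members, the named genes of the lists (of which the text gives some), and the 5 transcripts closest to each member in Spearman's rho. Alternatives were DESeq2 1.42.0 (shrunk by a prior or not), limma 3.58.1 voom with quality weights, RLE scaling, no low-count filter, all 3 groups in one fit, sex as a covariate, the rat number as a block, both *Gfap* transcripts summed, another prior count, and each rat left out. Fits without TKA rats 2 and 6 (members and lists), without TKA rat 2 and sham rat 1, with the neurofilament level as a covariate, and with TKA rat 4 entered as male were added after the data were seen. The edgeR step was checked on simulated counts, and the exact permutation test on values with a known answer. Results for some genes are not reported here.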

Additional observations from a re-analysis of the deposited data

Results flagged for a closer look

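Of 21 sets of 6 rats examined for a single extreme rat (members, the second *Gfap* transcript, and ratios in each group), 2 held one, where chance gives about 1.05. *Glul* was at 10.68 log2 CPM in TKA rat 2, against 9.09 in the next highest TKA rat. *Fabp7* was at 5.11 log2 CPM in sham rat 2, against 5.498 in the next lowest sham rat, a small distance that stands out because the other 5 sham rats lay close together.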

How the results depend on the processing

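Of 188 values recomputed under the alternatives, 158 kept their direction, their side of the threshold, and, for counts of calls, stayed within 1.5 times. *Fabp7* kept its direction and was never called between groups, with a log2 fold-change from -0.48 to -0.31 for TKA against sham, -0.31 to -0.17 for TKA against naive, and 0.09 to 0.19 for sham against naive. *Gfap* against naive rats was called under DESeq2 with a prior (1.63) and without (3.55), voom (2.05), all 3 groups in one fit (3.54, adjusted p = 0.0318 with edgeR), and without TKA rats 2 and 6 (1.97), and its adjusted p ranged from 0.000225 to 0.581. *Glul* turned with the neurofilament covariate, to -0.11 against sham and -0.21 against naive rats. The cause was not tested.

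The number of transcripts called for TKA against sham was 0, and 58 with DESeq2 with a prior, 68 without a prior, 1 with voom, and 11 with all 3 groups in one fit. For TKA against naive it was 13, and 355, 450, 123, and 116 in the same order, 1 with the rat number as a block, 39 with the neurofilament covariate, and 105 without TKA rats 2 and 6. For sham against naive it was 0, and 5 with DESeq2 without a prior.

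With 1 rat left out, the calls for TKA against naive ranged from 3 (without naive rat 5) to 113 (without TKA rat 2). *Gfap* ranged from 2.17 to 3.77 against naive, 1.12 to 3.25 for TKA against sham, and 0.31 to 1.24 for sham against naive. *Glul* ranged from 0.38 to 1.12, 0.33 to 1.13, and -0.12 (without sham rat 1) to 0.13. The ratio of *Gfap* to *Fabp7* for TKA against sham ranged from 1.93 to 2.81 (4 of 12 fits past the threshold no more), *Gfap* to *Glul* from 1.08 to 1.60 (8 of 12), *Glul* to *Fabp7* from 0.85 to 1.23 (4 of 12), and the last against naive from 0.66 to 1.05 (9 of 12).

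The interaction of sex and surgery was recomputed with RLE scaling and with TKA rat 4 as male. Over these, that of *Gfap* was -1.95 to -1.49 for TKA against naive and -0.86 to -0.39 for TKA against sham. That of *Glul* was -1.10 to -0.72 and -0.53 to -0.14, and none was called. The interaction for *Fabp7* (TKA against naive) was 0.023 with TKA rat 4 as male, and with 1 rat left out it ranged from -0.23 to 0.25. For *Glul* it ranged from -1.42 to 0.0053 against naive and -0.85 to 0.58 against sham, and for *Gfap* against sham from -1.91 to 1.07. Without TKA rats 2 and 6 the ratios for TKA against sham were 1.65, 1.01, and 0.64, and *Glul* to *Fabp7* against naive 0.46.

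The rat numbers do not pair the rats: same-numbered rats of 2 groups had correlated deviations from their group means of -0.07 to 0.24, over 0.1 in 2 of 18 pairs, and 1 rat correlated best with its own number. With the number as a block, edgeR called none of the members. Permuting ratios within rat numbers left the values at 2.41, 2.84, 1.32, 1.94, and 1.08 with an adjusted p of 0.0562 each, and at 0.90 with 0.141, so none of the 6 stayed past the threshold. The smallest exact p that 6 pairs allow is 0.0312.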
